A study of Rattus norvegicus with 10 samples.

Results

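The genes described here encode the Rab GTPases and the SNARE proteins with their syntaxin-binding partners, the machinery that addresses and fuses intracellular vesicles. Members were taken by symbol alone, as every gene of the table named as a numbered Rab, syntaxin (Stx), syntaxin-binding protein (Stxbp), vesicle-associated membrane protein (Vamp) or as Snap23, Snap25, Snap29 or Snap47. This gave 70 of 9003 genes, of which 42 are Rabs and 28 are SNAREs or syntaxin-binding proteins. They were followed in RNA sequencing of splenic M2 macrophages sorted from WKY /Ncrj rats, in 10 libraries of 4 groups. The control group (n = 2) came from rats in the physiological condition. The GN group (n = 2) came from rats with glomerulonephritis that had received no adipose-derived mesenchymal stem cells (ASCs), the disease being induced by an antibody against the glomerular basement membrane. The EV+ (n = 3) and EV- (n = 3) groups came from nephritic rats that had received human ASCs whose membranes carried the dye DiD, and were the DiD-positive and the DiD-negative macrophages, respectively. A positive DiD signal shows that a cell holds ASC membrane and does not by itself show in which form it was taken up. By microscopy the paper found most DiD particles on the leukocyte surface, which it reads as transfer of extracellular vesicles. The paper also proposes that DiD-negative macrophages may have met such vesicles briefly. The ages of these rats are not given in the labels, and the labels do not say whether a library pooled several animals or which EV+ and EV- libraries came from 1 animal.

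Rab GTPases are molecular switches. Bound to GTP they sit on a particular membrane and recruit motors, tethers and fusion factors, so that each compartment of the endocytic and secretory routes carries its own Rabs. SNAREs then pull membranes together: an R-SNARE, usually a Vamp on the vesicle, pairs with a syntaxin and a Snap protein on the target, and Sec1/Munc18 proteins such as Stxbp2 and Stxbp3 guide the syntaxin. In macrophages these proteins carry engulfed material to the lysosome, return receptors to the surface and release cytokines and lysosomal contents. The comparison of EV+ with EV- macrophages addresses whether transcripts of this machinery differ between cells with and without a DiD signal, and those with control and GN whether they differ with nephritis and with ASC treatment.

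Values are read counts scaled to library size (CPM) with trimmed-mean normalization, and the libraries held 19270515 to 26617093 reads on genes, so that 3 reads, taken as the detection floor, corresponded to 0.113 to 0.153 CPM. Without molecular identifiers this floor accounts for counting error alone. The 70 genes together took 0.669 to 0.706% of the reads of a library. Of the macrophage markers, Lyz2 (lysozyme) was high, between 15325 and 20176 CPM, as were Csf1r (5800 to 8155 CPM) and Cd68 (1163 to 1466 CPM). Others were low, with C1qa at 1.75 to 8.59 CPM, C1qb at 2.06 to 11.2 CPM and Spic at 2.61 to 6.82 CPM. Cd163 and Mrc1, the usual defining genes of the M2 state, lay between 0 and 1.81 CPM in all 10 libraries. The macrophages were identified as M2 by the sort, and these 2 transcripts did not mark them. Of 24 listed NK and T cell markers, 20 were measured, and their summed level was 34.3 to 45.2 CPM in control, 33.6 to 51.8 CPM in GN, 30.8 to 55.0 CPM in EV+ and 71.5 to 875 CPM in EV- macrophages, highest in EV- replicate 1. Of 14 listed macrophage markers 12 were measured, with a sum of 24795 to 25034 CPM in control and 28813 to 31020 CPM in the 8 nephritic libraries. The summed level of 8 heat shock genes that respond to tissue dissociation was 2293 to 2319 CPM in control, 1685 to 2055 CPM in GN, 1476 to 1867 CPM in EV+ and 1521 to 2302 CPM in EV-. In sorted bulk samples, fewer cells of a type and less RNA per cell cannot be told apart.

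None of the 70 genes differed among the 4 groups or in any pairwise comparison at a false discovery rate (FDR) under 0.1 in limma, adjusted over all 9003 genes. Over the whole table, 2.57% of genes were called among the 4 groups, 1.75% in GN against control, 3.63% in EV+ against control, 2.84% in EV- against control, 0.122% in EV+ against GN, 0.378% in EV- against GN and 0.0222% in EV+ against EV-. In 2 contrasts added after the data were seen, 0 of 70 members were called when the 3 nephritic groups were set against control, with a background of 4.27%, and 0 of 70 when the 2 ASC-treated groups were set against GN, with a background of 0.422%. The background was 0.0222 to 0.422% in the comparisons against GN and between EV+ and EV-. A list of 70 genes would hold under 1 called gene there at the rate of the table, and the absence of calls is not a result about the members. In the remaining comparisons, with a background of 1.75 to 4.27%, a list of this size would hold only a few called genes. The absence of calls there also says little about the members.

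At an unadjusted p under 0.05, 4 members passed among the 4 groups, where 12% of all genes did. The corresponding numbers were 4 members in GN against control (background 10.4%), 7 in EV+ against control (15%), 4 in EV- against control (13.1%), 1 in EV+ against GN (7.13%), 3 in EV- against GN (7.85%) and 2 in EV+ against EV- (4.57%). They were 8 in the nephritic groups against control (14.6%) and 2 in the ASC-treated groups against GN (8.23%). As shares of the 70 members these numbers run from 1.43 to 11.4%, and each lay below the share of all genes in the same comparison. With edgeR's quasi-likelihood test on the recovered reads 0 members passed an FDR under 0.1 in every comparison. DESeq2, which called more genes throughout the table, called 1 member in each of 4 comparisons. That gene was Rab31 among the 4 groups (background 6.03%), in GN against control (3.27%) and in the nephritic groups against control (6.38%), and Rab5b in EV+ against control (6%).

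The data bounded the size of most differences. Of the 70 members, 57 had a mean of at least 5 CPM over the 10 libraries. For each of these 57, the 95% interval in the main limma fit lay within a 2-fold change of CPM + 1 in all 8 contrasts. Over all 7193 genes with a mean of at least 5 CPM, this held for 95.9% of genes in GN against control and for 99.1% in EV+ against EV-, so the bound is close to that of other genes at these levels. The bound is that of the main fit alone and applies to CPM + 1, where a 2-fold change is a larger change in CPM. Vamp8 came nearest to it in EV+ against control, with a lower limit of -0.98 on the log2 scale, and its difference of -0.55 was -0.73 without EV+ replicate 1. For 54 of the 57 members the interval of EV+ against EV- also lay within 0.5 on the log2 scale, and for 42 of 57 that of GN against control did. The median size of a difference was 0.12 log2 for the 70 members in GN against control, beside 0.14 for all genes, and 0.074 in EV+ against EV-, beside 0.085.

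**Figure D1:**
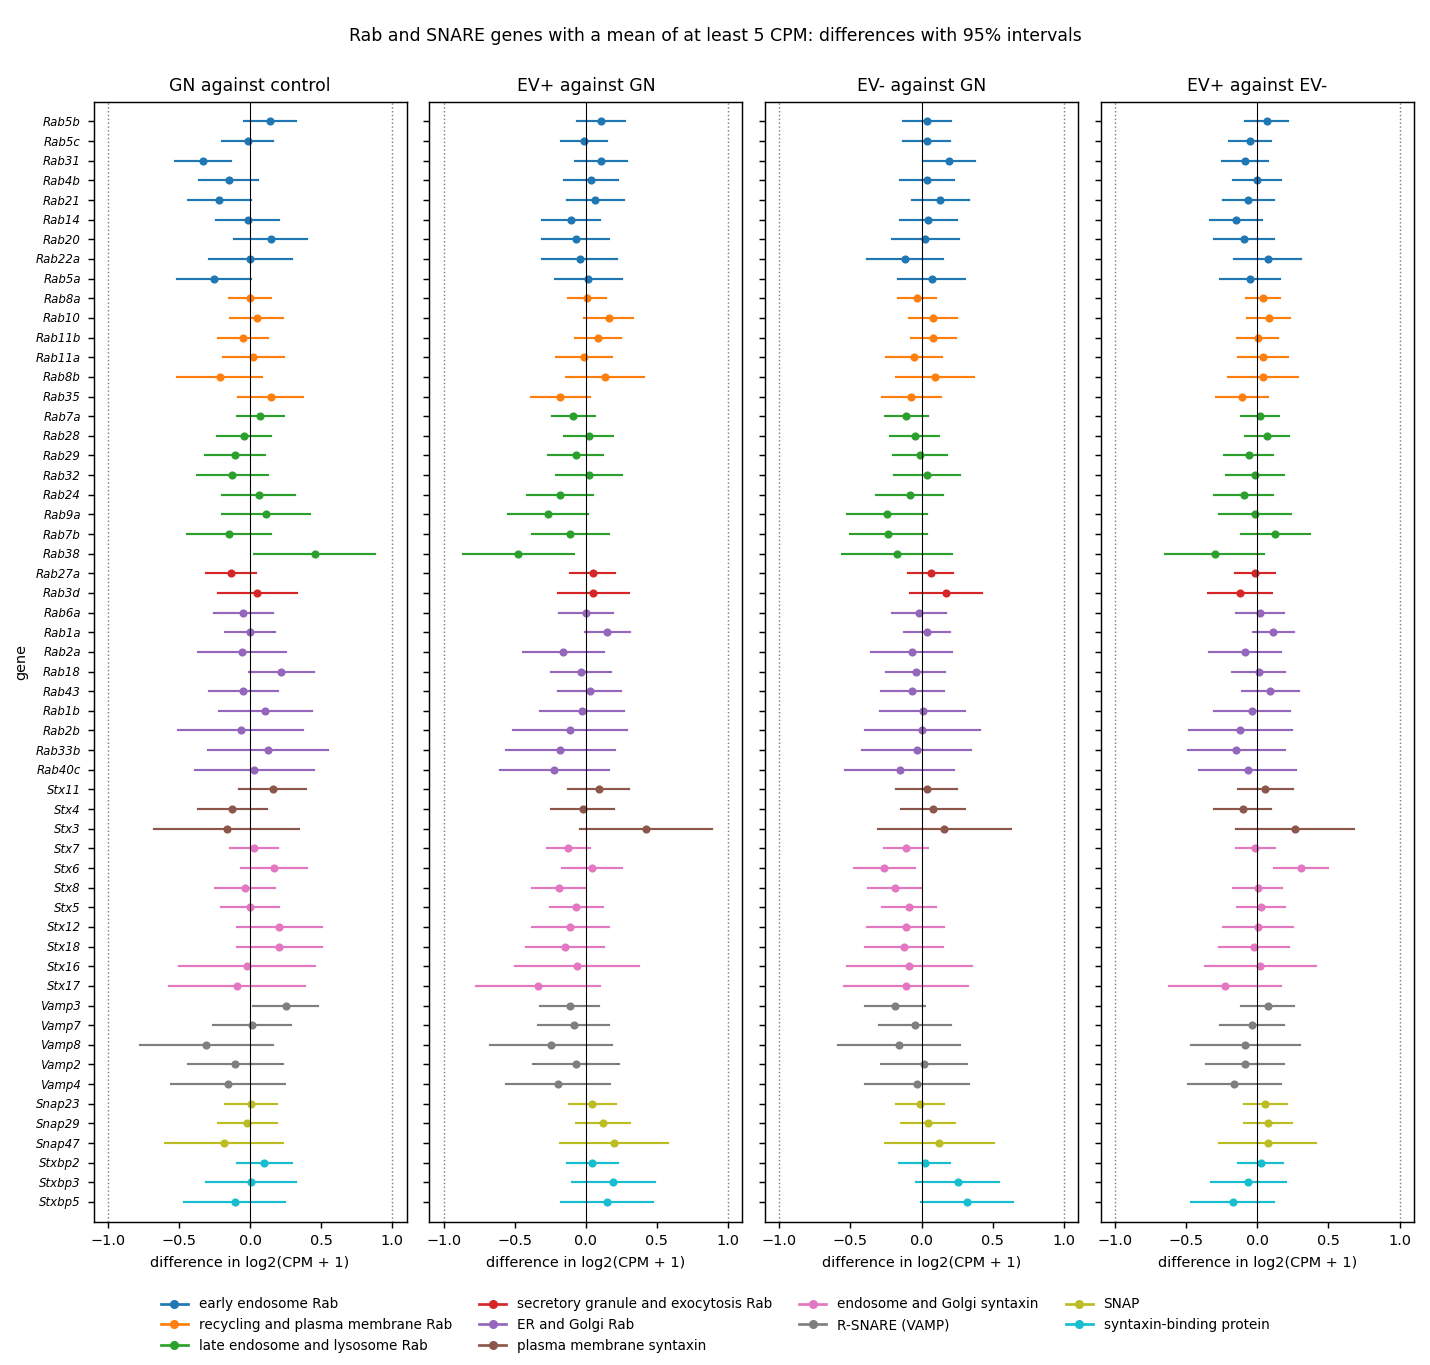
Differences in log2(CPM + 1) of 56 of the 57 Rab, SNARE and syntaxin-binding genes with a mean of at least 5 CPM, in 4 comparisons, with points for the estimate, bars for the 95% interval from limma and colours for the role of the gene. All bars lie between the dotted lines, which mark a 2-fold change of CPM + 1, and none of the differences passed an FDR under 0.1.

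The levels were also steady from library to library. The median coefficient of variation over the 10 libraries was 7.59% for the 57 members and 10.8% for all 7193 genes at or above 5 CPM. The members were on the whole more abundant, with a median over the 70 of 49.4 CPM beside 29.4 CPM for all 9003 genes, so the 2 medians of variation are not matched for level. Rab8a, which carries vesicles to the plasma membrane, had a coefficient of variation of 1.92%, and 1 of the 7193 genes was lower. It was measured at 763 and 776 CPM in control, 780.3 and 757 in GN, 789.9, 749.7 and 778 in EV+, and 756, 747 and 755 in EV-. The groups overlapped, and the highest and the lowest of the 10 values both fell in libraries from ASC-treated rats. Stx5 (3.52%), Rab28 (3.74%), Rab5c (4.02%), Snap23 (4.18%) and Rab7a (4.29%) followed. At the other end stood the plasma membrane syntaxin Stx3 (23.01%), Vamp8 (20.6%), Rab38 (18.1%) and Stx17 (18.0%).

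**Figure D2:**
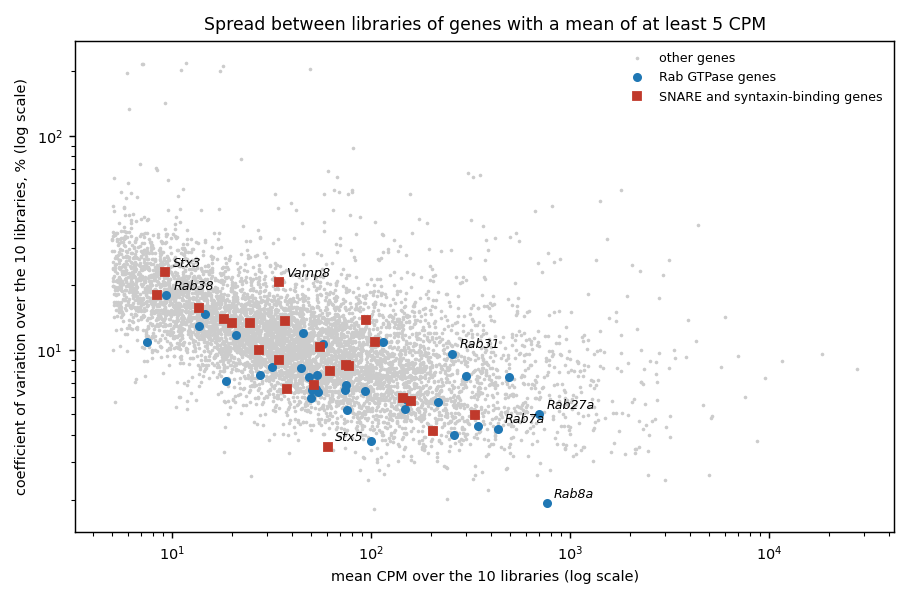
Coefficient of variation over the 10 libraries (vertical axis, %, log scale) against mean CPM (horizontal axis, log scale) for the 7193 genes with a mean of at least 5 CPM, with the Rab genes as circles and the SNARE and syntaxin-binding genes as squares. The members lie mostly in the lower part of the cloud, with a median of 7.59% beside 10.8% for all genes, and Rab8a lies at the bottom at 1.92%.

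The early endosome group holds the Rabs that receive newly engulfed cargo. The 3 isoforms of Rab5, which tether and fuse early endosomes, showed different levels and different orders of the groups. Rab5a was measured at 31.2 and 31.1 CPM in control, 25.8 and 26.2 in GN, 26.1, 26.4 and 26.5 in EV+, and 27.1, 26.2 and 28.8 in EV-. Both control libraries lay above all 8 nephritic libraries, and the nephritic groups were -0.22 log2 from control, with an adjusted p of 0.291. Rab5b was measured at 259 and 278 CPM in control, 281 and 311 in GN, 331, 294 and 329.5 in EV+, and 301, 306 and 305 in EV-. Here both control libraries lay below all 8 nephritic libraries, and EV+ differed from control by 0.24 on the log2 scale (SE 0.079, 95% interval 0.075 to 0.41, adjusted p = 0.147). Without EV+ replicate 2 that difference was 0.30 with an adjusted p of 0.0639, and DESeq2 gave an adjusted p of 0.0734. Rab5c stood at 253 and 273 CPM in control, 265 and 255 in GN, 269.9, 241 and 262 in EV+, and 259, 264 and 277 in EV-, with overlap of all groups. The isoforms are close in sequence, and reads that they share could be assigned to either or dropped, so their separate levels are uncertain to that extent.

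Rab31, which acts between the Golgi apparatus and early endosomes and has been linked to the sorting of cargo into exosomes, had the lowest adjusted p of the members in the pairwise comparisons. It was measured at 301 and 274 CPM in control, 228 and 228 in GN, 256, 255 and 227 in EV+, and 282, 253 and 249 in EV-. Both GN libraries lay below both control libraries, while EV+ and EV- libraries lay mostly between them. The difference of GN from control was -0.33 on the log2 scale (SE 0.092, 95% interval -0.53 to -0.13, adjusted p = 0.137). The call depended on the test: DESeq2 gave an adjusted p of 0.0377, and limma with the replicate number as a block gave 0.0682 and called this 1 member, with 2.28% of all genes called in that fit. The block also joined control and GN libraries by number, a pairing that the labels do not give, and left the difference at -0.33. Adjusted p ran from 0.0377 to 0.167 over the other analyses and from 0.1005 to 0.569 when 1 library was left out. EV- differed from GN by 0.19 (SE 0.084, adjusted p = 0.596), and EV+ from control by -0.22 (SE 0.084, adjusted p = 0.229). The summed heat shock level was also lower in GN than in control. Hspa1a, Hspa1b, Dnajb1, Hsp90aa1 and Hspb1 were lower in both GN libraries than in both control libraries, while Hspa8, Hsph1 and Dnaja1 overlapped. The part of the heat shock level in the Rab31 values was not tested.

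The other early endosome Rabs stayed within narrow ranges. Rab21, which works in integrin traffic and phagocytosis, was measured at 80.6 and 80.5 CPM in control, 69.9 and 68.5 in GN, 67.2, 76 and 74.7 in EV+, and 70.6, 78.4 and 79 in EV-. All 8 nephritic libraries lay below both control libraries, and GN differed from control by -0.22 (SE 0.10, adjusted p = 0.487). Rab14, which links early endosomes with the Golgi apparatus, was between 64.8 and 83.7 CPM, and Rab20, a Rab of maturing phagosomes, was between 45.5 and 59.9 CPM. The remaining members with a mean of at least 5 CPM were Rab4b, of fast recycling (between 71.9 and 81.7 CPM), and Rab22a (between 36.2 and 49.2 CPM). The summed level of the group's 10 measured genes was 1185 to 1186 CPM in control, 1123 to 1139 CPM in GN, 1130 to 1192 CPM in EV+ and 1173 to 1208 CPM in EV-.

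Of the late endosome and lysosome Rabs, Rab7a, the switch for fusion of late endosomes and phagosomes with lysosomes, was the most abundant. It was measured at 412 and 455 CPM in control, 445 and 466 in GN, 437, 415 and 432 in EV+, and 435, 420.3 and 412 in EV-. Its 6 ASC-treated libraries lay below both GN libraries and within the range of control. Rab7b, a related Rab of the route from endosomes to the Golgi apparatus, was measured at 24.5 and 24.6 CPM in control, 23.9 and 20.4 in GN, 21.4, 20.4 and 19.5 in EV+, and 19, 18.1 and 18.8 in EV-. For Rab7b both control libraries lay above all 8 nephritic libraries, and all 3 EV+ libraries lay above all 3 EV- libraries. EV- differed from control by -0.38 on the log2 scale (SE 0.13, 95% interval -0.65 to -0.11, adjusted p = 0.185), from GN by -0.23 (SE 0.13, adjusted p = 0.702), which was -0.34 to -0.12 with 1 library left out, and EV+ from EV- by 0.12 (SE 0.11, adjusted p = 0.9997).

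Rab38, which with Rab32 delivers cargo to lysosome-related organelles, was low and varied more. It was measured at 9.36 and 6.93 CPM in control, 12.2 and 10.7 in GN, 7.66, 7.03 and 9.28 in EV+, and 10.2, 9.94 and 9.88 in EV-. Both GN libraries lay above all other libraries, and all 3 EV+ libraries lay below all 3 EV- libraries. The difference of GN from control was 0.45 (SE 0.20, adjusted p = 0.43), or 0.65 without control replicate 1 and 0.26 without control replicate 2, that of EV+ from GN -0.47 (SE 0.18, adjusted p = 0.644) and that of EV+ from EV- -0.30 (SE 0.16, adjusted p = 0.9997). Rab9a, of transport from late endosomes to the Golgi apparatus, was measured at 41.2 and 54.6 CPM in control, 51.6 and 51.1 in GN, 43.2, 39.8 and 45 in EV+, and 48.1, 38.5 and 43.4 in EV-. Both GN libraries lay above the 6 ASC-treated libraries but between the 2 control libraries. Rab9a differed from GN by -0.26 (SE 0.13, adjusted p = 0.735) in EV+ and by -0.25 (SE 0.13, adjusted p = 0.698) in EV-. Rab32 was between 46.9 and 58.3 CPM, Rab24 between 42.8 and 53.9 CPM, Rab28 between 94.6 and 106 CPM and Rab29 between 87.1 and 104 CPM.

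Among the Rabs of recycling endosomes and the plasma membrane, Rab10, which serves the delivery of surface receptors, was measured at 452 and 463 CPM in control, 474 and 471 in GN, 551, 478 and 558 in EV+, and 508, 474 and 516 in EV-. Both control libraries lay below all 8 nephritic libraries. EV+ differed from control by 0.21 on the log2 scale (SE 0.079, 95% interval 0.037 to 0.37, adjusted p = 0.234), and without EV+ replicate 2 by 0.28 with an adjusted p of 0.0561. From GN, EV+ differed by 0.16 (SE 0.079, adjusted p = 0.729). Rab11a, the central Rab of recycling endosomes, was between 138 and 165 CPM, and Rab11b, its close relative, was between 324 and 364 CPM. Rab35, of fast recycling and exosome release, was between 48 and 60.3 CPM, and Rab8b between 94.7 and 129.7 CPM. None of these separated all ASC-treated libraries together from GN, or EV+ from EV-. Taken alone, the EV+ libraries lay above both GN libraries for Rab10 and below them for Rab35. The EV- libraries lay below both GN libraries for Rab11a and above them for Rab11b.

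The Rabs of regulated secretion included 1 of the most abundant members. Rab27a, which docks secretory lysosomes and multivesicular bodies at the plasma membrane and is required for cytotoxic granule release in lymphocytes, was measured at 724 and 751 CPM in control, 636 and 709 in GN, 711, 706 and 669 in EV+, and 702, 739.8 and 666 in EV-. The 8 nephritic libraries spanned both sides of the lower control value. Rab3d, a Rab of secretory granules, was measured at 28.7 and 29.9 CPM in control, 27.9 and 33 in GN, 30.4, 31.4 and 32.8 in EV+, and 35.2, 36.1 and 31.8 in EV-, and EV- differed from GN by 0.17 (SE 0.12, adjusted p = 0.789). That difference was 0.057 without GN replicate 1 and 0.29 without GN replicate 2. Rab27b was not among the 9003 genes of the table.

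Of the ER and Golgi Rabs, Rab18, of the endoplasmic reticulum and lipid droplets, was measured at 42.2 and 48.5 CPM in control, 52.6 and 53.1 in GN, 53.4, 51.4 and 50.1 in EV+, and 50.2, 52.2 and 51.4 in EV-. Both control libraries lay below all 8 nephritic libraries, and the difference of GN from control was 0.22 (SE 0.11, adjusted p = 0.51), or 0.12 to 0.32 with 1 library left out. Rab1a, which serves transport from the endoplasmic reticulum to the Golgi apparatus, was between 137 and 163 CPM, with all 3 EV+ libraries above all 3 EV- libraries. Rab6a, of the Golgi apparatus, was between 201 and 234 CPM. The summed level of the group's 13 measured genes stayed between 561 and 611 CPM.

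**Figure D3:**
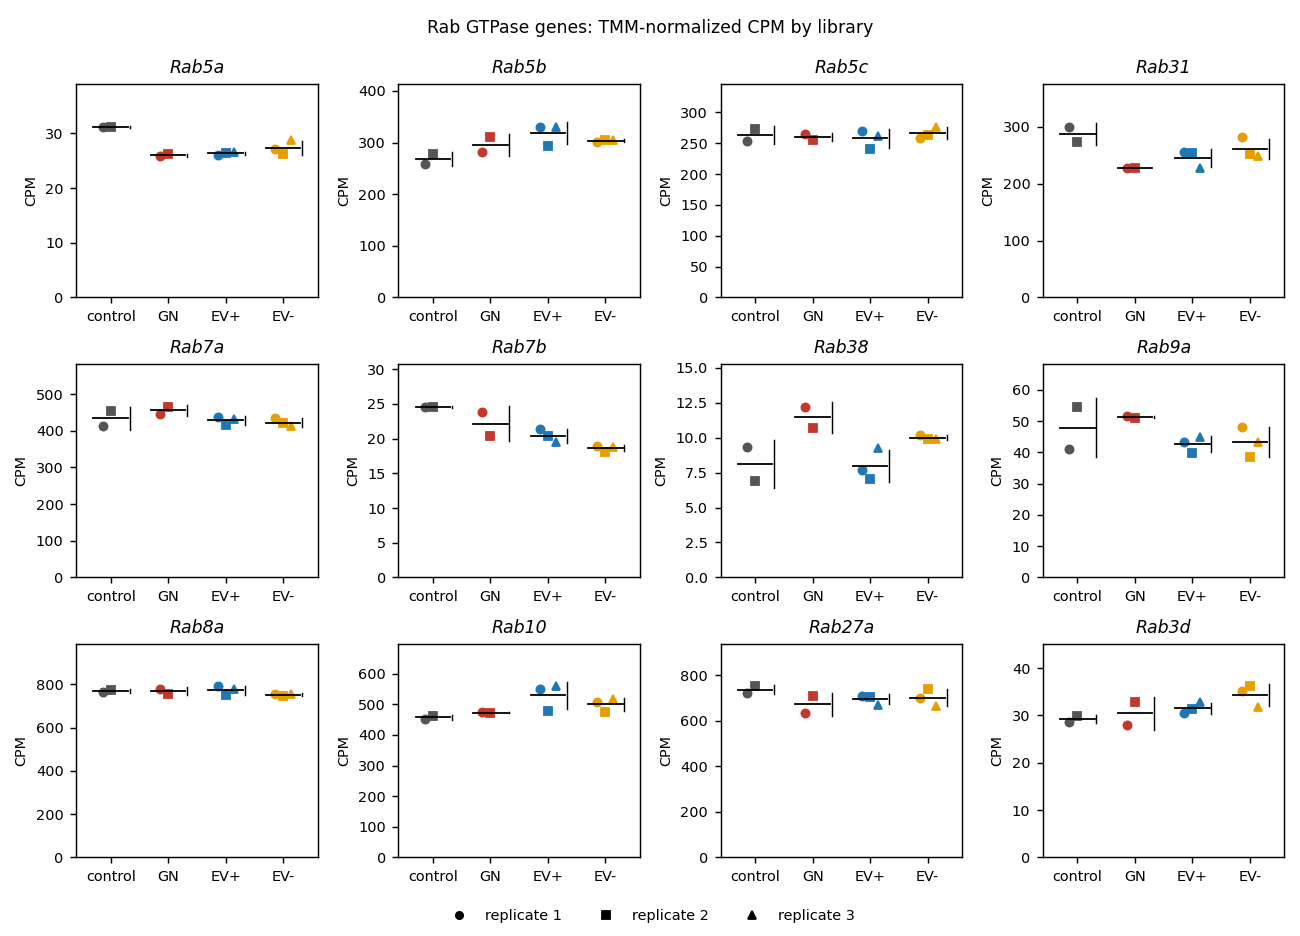
Levels of 12 Rab genes in CPM by group, 1 point per library with the shape giving the replicate number, horizontal lines for the mean and vertical bars for ± 1 SD, on axes that start at 0. Rab5a and Rab7b are higher in both control libraries than in the 8 nephritic libraries, Rab5b and Rab10 are lower there, and Rab8a stays between 747 and 790 CPM.

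Among the syntaxins of endosomes and the Golgi apparatus, Stx6, which serves transport between the trans-Golgi network and endosomes, gave the lowest adjusted p of the members in EV+ against EV-. It was measured at 96.1 and 103 CPM in control, 118 and 106 in GN, 115, 114 and 118 in EV+, and 100.4, 98.6 and 82 in EV-. All 3 EV+ libraries lay above all 3 EV- libraries, and both GN libraries also lay above the EV- libraries. The difference of EV+ from EV- was 0.31 on the log2 scale (SE 0.088, 95% interval 0.12 to 0.49, adjusted p = 0.796), and no analysis brought it past the threshold, with adjusted p from 0.272 to 0.837 over the other analyses of all 10 libraries and from 0.642 to 0.9999 when 1 library was left out. EV- differed from GN by -0.26 (SE 0.099, adjusted p = 0.509), a difference of -0.34 to -0.17 with 1 library left out.

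Stx7 and Stx8 pair in the fusion of late endosomes with each other and with lysosomes. Stx8 was measured at 68.6 and 68.2 CPM in control, 65.9 and 67.4 in GN, 59.3, 57.4 and 58.5 in EV+, and 61.5, 55.5 and 58.2 in EV-. The 6 ASC-treated libraries all lay below both GN libraries, and these in turn below both control libraries. EV+ differed from control by -0.22 (SE 0.089, adjusted p = 0.25), EV- from control by -0.22 (SE 0.089, adjusted p = 0.284), and the ASC-treated groups from GN by -0.19 on the log2 scale (SE 0.079, 95% interval -0.36 to -0.016, adjusted p = 0.549). Stx7 was measured at 328 and 364 CPM in control, 354 and 349.7 in GN, 338, 319.6 and 311 in EV+, and 326, 326 and 326 in EV-. Its 6 ASC-treated libraries lay below both GN libraries, but 1 control library lay among them. Stx17, of autophagosome fusion, was between 5.49 and 10.4 CPM, with a difference of EV+ from GN of -0.34 (SE 0.20, adjusted p = 0.827) and of EV+ from EV- of -0.23 (SE 0.18, adjusted p = 0.9997). With 1 library left out they ran from -0.52 to -0.15 and from -0.34 to -0.083, respectively, and the replicate block gave -0.21 for EV+ against GN.

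The 8 measured syntaxins listed in this group were Stx5, Stx6, Stx7, Stx8, Stx12, Stx16, Stx17 and Stx18. All 8 were lower in the ASC-treated groups than in GN, with a median of -0.11 log2. Of all 9003 genes 4677 were lower, and the median of all genes was -0.0074. For the late endosome and lysosome Rabs this was so for 7 of 8, with a median of -0.12. Of the other roles, the R-SNAREs were lower in 6 of 7 and the ER and Golgi Rabs in 9 of 13, whereas the secretory granule Rabs and the Snap proteins were higher in 3 of 3 each, the syntaxin-binding proteins in 4 of 5, the early endosome Rabs in 6 of 10, the plasma membrane syntaxins in 3 of 5 and the recycling Rabs in 4 of 8. None of these differences passed the test. Without GN replicate 1 the numbers were 6 of 8 syntaxins (median -0.091) and 6 of 8 Rabs (median -0.11), and the comparisons of EV+ and of EV- with GN share the same 2 GN libraries.

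The plasma membrane syntaxins receive secretory vesicles. Stx11, which works with Stxbp2 in granule release of cytotoxic lymphocytes and is also present in macrophages, was measured at 68.1 and 64.3 CPM in control, 71.5 and 76.5 in GN, 80.0, 76.9 and 79.8 in EV+, and 78.9, 67 and 82.5 in EV-. All EV+ libraries lay above both control libraries, and EV+ differed from control by 0.25 (SE 0.10, adjusted p = 0.259). Stx4, of constitutive and cytokine secretion, was between 47.5 and 58.3 CPM. Stx3 was measured at 8.94 and 8.58 CPM in control, 6.51 and 9.11 in GN, 14.8, 9.05 and 9.06 in EV+, and 8.46, 8.31 and 9.49 in EV-, with its highest value in EV+ replicate 1. EV+ differed from GN by 0.42 (SE 0.22, adjusted p = 0.742), and the difference was 0.21 without EV+ replicate 1, 0.21 without GN replicate 1 and 0.64 without GN replicate 2. EV+ differed from EV- in Stx3 by 0.26 (SE 0.19, adjusted p = 0.9997), and by 0.046 without EV+ replicate 1.

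Of the R-SNAREs, Vamp8, which serves fusion of endosomes and autophagosomes with lysosomes and granule release, was measured at 43.4 and 44.5 CPM in control, 34.2 and 36.4 in GN, 38.3, 20.6 and 32.9 in EV+, and 31.4, 27.2 and 36.6 in EV-. Both control libraries lay above all 8 nephritic libraries, and the lowest value was that of EV+ replicate 2. The difference from control was -0.31 (SE 0.22, adjusted p = 0.689) in GN, -0.55 on the log2 scale (SE 0.20, 95% interval -0.98 to -0.12, adjusted p = 0.208) in EV+ and -0.47 (SE 0.20, adjusted p = 0.328) in EV-. For EV+ it was -0.73 with an adjusted p of 0.0645 without EV+ replicate 1, and -0.30 with an adjusted p of 0.403 without EV+ replicate 2. The fit without EV+ replicate 2 left the difference of EV- from control at -0.47 and gave it an adjusted p of 0.0896. Between EV+ and GN the difference was -0.24 (SE 0.20, adjusted p = 0.876), and 0.0075 without EV+ replicate 2.

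Vamp3, of recycling endosomes and phagocytic cup formation, was measured at 74.2 and 68.4 CPM in control, 91.3 and 78.8 in GN, 80.9, 72.4 and 82.1 in EV+, and 72.8, 74.1 and 76.4 in EV-. Both GN libraries lay above both control libraries, and the difference was 0.25 (SE 0.11, adjusted p = 0.415), or 0.14 to 0.35 with 1 library left out. Vamp4, of the trans-Golgi network, was measured at 19.99 and 21.4 CPM in control, 19.6 and 17.4 in GN, 19.6, 16.6 and 12.5 in EV+, and 19.8, 17 and 17.3 in EV-, below both control values in all 8 nephritic libraries, and EV+ differed from EV- by -0.16 (SE 0.15, adjusted p = 0.9997), or by 0.0033 without EV+ replicate 3. Vamp7, of lysosomal exocytosis, was between 32.9 and 41 CPM, and Vamp2 between 23.6 and 31.6 CPM.

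The Snap proteins complete the SNARE bundle on the target membrane, and Snap23 is the main form at the surface of non-neuronal cells. Snap23 was measured at 199.7 and 205 CPM in control, 201 and 207 in GN, 218, 193 and 221 in EV+, and 199, 201 and 207 in EV-, with overlap of all groups. Snap29 was between 132 and 159 CPM. Snap47 was between 15.2 and 23.3 CPM, and EV+ differed from GN by 0.20 (SE 0.18, adjusted p = 0.887), or by -0.031 without GN replicate 1.

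Stxbp3, a widely expressed Munc18 protein, was measured at 88.9 and 81 CPM in control, 81.5 and 89.1 in GN, 83.8, 109 and 101 in EV+, and 83.8, 112 and 112 in EV-. The lowest values of EV+ and of EV- both came from replicate 1, and the differences from GN were 0.19 (SE 0.14, adjusted p = 0.867) in EV+ and 0.25 (SE 0.14, adjusted p = 0.698) in EV-. With 1 library left out they ran from 0.11 to 0.30 and from 0.18 to 0.39. Stxbp5, or tomosyn, an inhibitor of SNARE assembly, was measured at 37 and 33.7 CPM in control, 33.4 and 31.9 in GN, 41.3, 41.3 and 28 in EV+, and 39.8, 39.8 and 43.6 in EV-. All EV- libraries lay above both GN libraries, with a difference of 0.32 (SE 0.15, adjusted p = 0.641), while EV+ differed from EV- by -0.17 (SE 0.14, adjusted p = 0.9997), or by 0.0089 without EV+ replicate 3. Stxbp2, the Munc18 protein of granule release, was between 144 and 172 CPM.

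**Figure D4:**
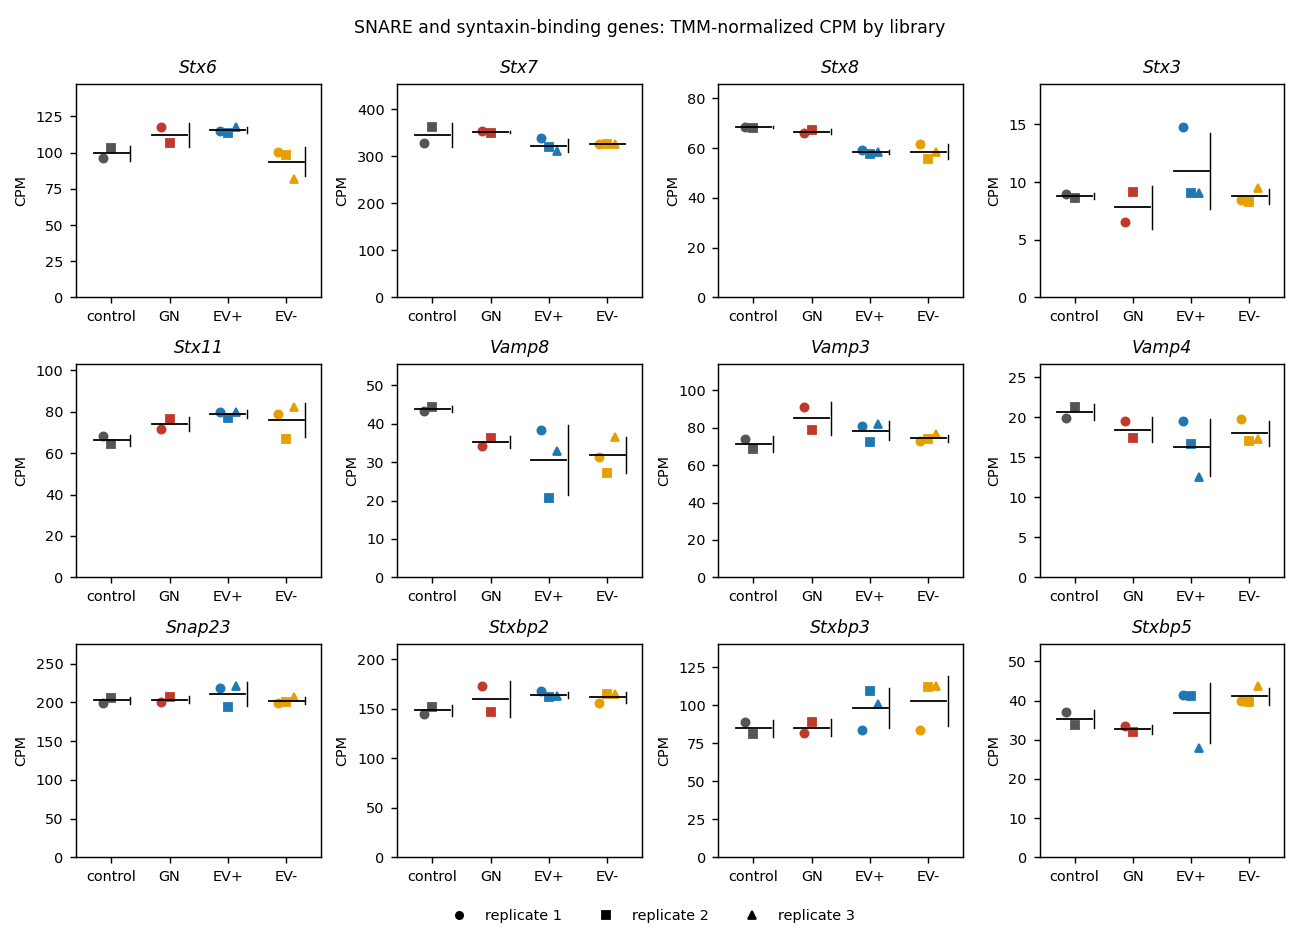
Levels of 12 SNARE and syntaxin-binding genes in CPM by group, 1 point per library with the shape giving the replicate number, horizontal lines for the mean and vertical bars for ± 1 SD, on axes that start at 0. Stx6 is higher in the 3 EV+ than in the 3 EV- libraries, Stx8 is lower in the 6 ASC-treated libraries than in the others, and Vamp8 is lowest in EV+ replicate 2 at 20.6 CPM.

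Whether groups overlapped was counted over all members. All 8 nephritic libraries lay above both control libraries for 3 members (Rab10, Rab18 and Rab5b), beside 5.89% of all genes, and below them for 6 (Rab21, Rab5a, Rab7b, Stx8, Vamp4 and Vamp8), beside 6.73%. The 6 ASC-treated libraries lay above both GN libraries for 0 members (background 5.18%) and below them for 7 (5.61%), among them Rab38, Rab7a, Rab9a, Stx5, Stx7 and Stx8. The EV+ libraries lay above the EV- libraries for 4 members (4.25%), among them Rab1a, Rab7b and Stx6, and below them for Rab38 (4.65%). As shares of the members these are 4.29 and 8.57% for nephritis, 0 and 10% for ASC treatment, and 5.71 and 1.43% for EV+ against EV-. Marker sums of other cell types also separated both control libraries from all 8 nephritic libraries, as the macrophage sum did. The sum of 6 neutrophil markers was 549 to 554 CPM in control and 609 to 744 CPM in the nephritic libraries, that of 2 erythroid markers 1.19 to 1.61 and 3.28 to 7.26 CPM, and that of 3 stroma markers 159 to 163 and 166 to 213 CPM. Csf3r made up most of the neutrophil sum, at 529 and 528 CPM in control and 586 to 723 CPM in the nephritic libraries. S100a8, S100a9, Camp, Mmp8 and Mmp9 overlapped between control and nephritic libraries. In the macrophage sum Lyz2 and Csf1r were higher in all nephritic libraries, whereas Cd68 and Hmox1 overlapped. The nephritic libraries were lower for the sum of 6 B cell markers, at 60.7 to 98.4 CPM beside 98.5 to 122 CPM in control, and for that of 3 dendritic cell markers, at 303 to 351.7 CPM beside 351.9 to 354 CPM. Of the B cell markers, Cd79b was lower and Bank1 higher in all nephritic libraries than in control. The part of these sums in the differences from control was not tested.

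The 13 members under a mean of 5 CPM were Rab3a, Rab4a, Rab12, Rab19, Rab23, Rab30, Rab39a, Rab40b, Stx1a, Stx2, Stxbp4, Vamp1 and Vamp5. Their means ran from 0.406 CPM for Rab30 to 4.49 CPM for Vamp1. Rab30 and Rab40b were at 0 in at least 1 library, which allows up to the floor of 3 reads. At this depth a 2-fold difference of CPM + 1 could not be bounded for Rab19, Rab23, Rab30, Rab40b, Stx1a, Stx2 and Stxbp4 in at least 1 comparison. Stx1a, a syntaxin best known from neurons, was measured at 0.578 and 0.907 CPM in control, 0.473 and 0.527 in GN, 0.0391, 0.0842 and 0.446 in EV+, and 0.826, 0.408 and 1.09 in EV-, and EV+ differed from EV- by -0.57 (SE 0.26, adjusted p = 0.9997). At this level the pseudocount and the test move the value, which was -0.89 with a pseudocount of 0.5, -2.04 with edgeR and -2.06 with DESeq2, with adjusted p from 0.792 to 0.9997.

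Rab27a, Stx11 and Stxbp2 share a granule-release route with cytotoxic lymphocytes, so their values were set beside the NK and T cell marker sum of 875 CPM in EV- replicate 1. There Rab27a was 702 CPM, Stx11 78.9 CPM and Stxbp2 155 CPM, each within the range of the other libraries. Unc13d, the priming factor that binds Rab27a, was 64.2 CPM there and between 45.7 and 77.2 CPM over the series. Without EV- replicate 1 the difference of EV+ from EV- was -0.014 log2 for Rab27a, 0.084 for Stx11 and -0.0053 for Stxbp2.

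**Figure D5:**
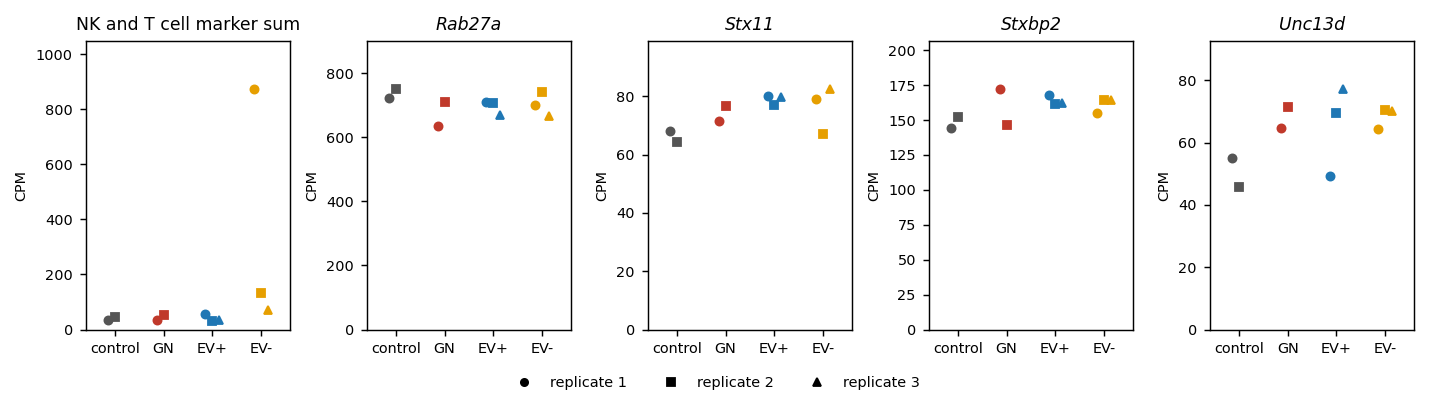
Summed CPM of 20 NK and T cell markers beside the levels of Rab27a, Stx11, Stxbp2 and Unc13d in CPM, by group with 1 point per library and the replicate number as the shape, on axes that start at 0. The marker sum reaches 875 CPM in EV- replicate 1, while the 4 granule genes of that library lie within the range of the other libraries.

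A further 3 lists of other genes of the same pathway were read in the same fit. Of 103 listed regulators and effectors of Rabs, 66 were measured. In this list 2 rose in EV+ against control, 2 in EV- against control and 0 in GN against control, EV+ against GN, EV- against GN and EV+ against EV-, and no gene fell. Both counts of 2 are 3.03% of the list, beside 3.63% of all genes called in EV+ against control and 2.84% in EV- against control. Among the 4 groups 2 were called, Rab11fip1 (adjusted p = 0.0173) and Tbc1d2b (adjusted p = 0.0659), and these with Tbc1d10c were the 3 that rose in the nephritic groups against control, or 4.55% of the list beside 4.27% of all genes. None of the 3 passed there without control replicate 2. The adjusted p of Tbc1d10c in that contrast, 0.0855, was 0.115 with edgeR and 0.131 under the replicate block, and 0.0565 to 0.545 when 1 library was left out. Rab11fip1, an effector that couples Rab11 to recycling endosomes, was measured at 135 and 125 CPM in control, 145 and 136 in GN, 166, 207 and 186 in EV+, and 175, 184 and 177 in EV-. It rose in EV+ by 0.51 on the log2 scale (SE 0.093, 95% interval 0.31 to 0.71, adjusted p = 0.00988) and in EV- by 0.45 on the log2 scale (SE 0.093, 95% interval 0.25 to 0.65, adjusted p = 0.0259) against control, and all 6 ASC-treated libraries lay above the other 4. Against GN the differences were 0.40 (SE 0.093, adjusted p = 0.258) in EV+ and 0.34 (SE 0.093, adjusted p = 0.29) in EV-. Without control replicate 2, adjusted p against control was 0.150 in EV+ and 0.247 in EV-.

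Tbc1d2b, of the family of Rab GTPase-activating proteins, was measured at 148 and 101 CPM in control, 177 and 184 in GN, 182, 257 and 203 in EV+, and 167, 189.7 and 181 in EV-. It rose in EV+ by 0.78 on the log2 scale (SE 0.15, 95% interval 0.46 to 1.105, adjusted p = 0.0127) against control. All 8 nephritic libraries lay above both control libraries, which differed from each other, and without control replicate 2 the difference was 0.51 with an adjusted p of 0.224. Tbc1d10c, of the same family and known from lymphocytes as carabin, was measured at 4.47 and 7.01 CPM in control, 7.38 and 11 in GN, 9.22, 7.49 and 8.21 in EV+, and 15.6, 10.04 and 13 in EV-. It rose in EV- by 1.05 on the log2 scale (SE 0.23, 95% interval 0.55 to 1.55, adjusted p = 0.0361) against control, with its highest value in EV- replicate 1, the library with the highest NK and T cell marker sum. Without that library the difference was 0.91 with an adjusted p of 0.130, and without control replicate 1 it was 0.77 with an adjusted p of 0.286.

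The other SNAREs and SNARE machinery, 20 of 26 listed, held 0 calls in all comparisons. The exocyst, synaptotagmins and tethers, 36 of 58 listed, held 0 calls in the 6 pairwise comparisons and 1 in the nephritic groups against control, Syt17, a low gene at between 0.0385 and 2.29 CPM whose adjusted p of 0.0702 was 0.130 with edgeR, 0.110 under the replicate block and 0.0471 to 0.440 when 1 library was left out. At an unadjusted p under 0.05, the SNARE machinery held 3 genes (15% of the list, the share of all genes also being 15%) in EV+ against control and 0 in EV+ against EV- (all genes 4.57%). The exocyst, synaptotagmins and tethers held 4 (11.1%) and 1 (2.78%) in these comparisons. For these 2 lists each share in these comparisons was close to or below that of all genes. The Rab regulators and effectors held 10 (15.2%, all genes 15%) and 4 (6.06%, all genes 4.57%). They held 8 (12.1%) in GN against control, beside 10.4%, and 8 (12.1%) in the ASC-treated groups against GN, beside 8.23%. In the nephritic groups against control they held 9 (13.6%), beside 14.6%. The medians of the 3 lists in EV+ against EV- were 0.020, -0.012 and 0.042 log2, in the order given, beside -0.0077 for all genes.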

How the data were processed

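RNA was extracted from sorted macrophages, amplified with the SMART-Seq v4 kit, made into Nextera XT libraries and sequenced in pairs. The authors aligned the reads to rn6 with STAR (v2.5.3), counted them on RefSeq genes with HTSeq (v0.6.0, intersection-strict), removed genes with a maximum CPM under 1 and applied TMM normalization in edgeR. The deposited values are this normalized signal in CPM for 9003 genes (smallest row maximum 1.01). The libraries do not keep strand, so a gene and its antisense partner cannot be told apart, and 18 symbols had been turned into dates. No coordinates are given, since the reference at hand was of another build.

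All values were whole reads on division by the worth of 1 read (100%, tolerance 0.01), and these recovered reads give the depth of each library. The main test was limma (v3.58.1) in R (v4.3.3) on log2(CPM + 1), a pseudocount that understates changes of low genes, fitting the 4 groups together (6 residual degrees of freedom, intensity trend), with Benjamini-Hochberg adjustment over 9003 genes and an FDR under 0.1. The analysis was tested on simulated data. The alternatives were a pseudocount of 0.5, at least 1 CPM in at least 2 libraries (8713 genes), RLE size factors, edgeR (v4.0.16) and DESeq2 (v1.42.0) on the recovered reads, the replicate block and each library left out. The nephritic and the ASC-treated groups were contrasted, with control and GN respectively, after the data were seen. Figures were drawn with matplotlib (v3.10.9).

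Groups and replicate numbers came from the sample titles. The study names the replicates biological. Between replicates of a group, the chi-square of the reads per degree of freedom was 13.4 to 45.0, far above sampling noise, so no library repeats another of its group. Libraries of different groups were not compared in this way. Deviations from the group means correlated between same-numbered EV+ and EV- libraries (0.203, 0.295 and 0.122). The replicate block took these as paired by number, a pairing that comes from the data and not from the labels. The main test had no block, so its results for EV+ against EV- are unpaired. The block joined libraries of all 4 groups by number, also those of control and GN, where the correlation was 0.088.

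The members and gene lists were chosen with earlier results of these data known. Genes are named if they passed the FDR in any comparison, if they were among the 4 highest or 4 lowest differences of members with a mean of at least 5 CPM in GN against control, EV+ against GN, EV- against GN or EV+ against EV-, or by role. Of the pathway lists, genes are named if called. A gene that this rule names is not reported here, but stays in all counts. Further members, Unc13d, the heat shock genes and the marker genes were named after their values were seen. Of the marker lists not described with the results, plasma cell markers summed to 115 to 171 CPM and 0 of 4 platelet markers were measured.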

Additional observations from a re-analysis of the deposited data

How the results depend on the processing

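No member was called in any comparison under a pseudocount of 0.5, the filter of at least 1 CPM in at least 2 libraries, RLE size factors or edgeR. DESeq2 called 1 member in GN against control, 1 in EV+ against control, 1 in the nephritic groups against control and 1 among the 4 groups. The replicate block called 1 member in GN against control, Rab31, and changed no other count of members. With 1 library left out the number called was 0 to 2 in EV+ against control (Vamp8 without EV+ replicate 1, Rab10 and Rab5b without EV+ replicate 2), 0 to 1 in EV- against control (Vamp8 without EV+ replicate 2) and 0 to 1 in the nephritic groups against control (Rab5b without EV+ replicate 2). Of 991 values computed under the alternatives for 62 differences of named genes, 955 kept their direction and their side of the threshold, 9 passed it, 23 no longer passed it and 4 turned direction. With 1 library left out, the latter 4 ranged from -0.26 to 0.0089 for Stxbp5 and from -0.30 to 0.0033 for Vamp4 in EV+ against EV- (turned without EV+ replicate 3), and from -0.031 to 0.43 for Snap47 (turned without GN replicate 1) and from -0.42 to 0.0075 for Vamp8 (turned without EV+ replicate 2) in EV+ against GN. The values that no longer passed were of Rab11fip1, Tbc1d2b, Tbc1d10c and Syt17 against control. For Rab11fip1 and Tbc1d2b these were fits without a control library, while for Tbc1d10c and Syt17 in the nephritic groups edgeR and the replicate block also lost the call with all libraries kept. Leaving out 1 library moved 24 of the 62 differences by over 1.5 times. RLE scaling moved the median of all genes by at most 0.0033 log2. The cause of these changes was not tested. With 2 libraries in control and in GN, leaving out 1 assumes that the remaining one varies like the other groups. Of the 13 members under a mean of 5 CPM, 7 were not bounded within a 2-fold change of CPM + 1 in at least 1 comparison.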
